A study of Mus musculus with 12 samples.

Results

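The retinoic acid receptors are encoded by Rara, Rarb and Rarg and the retinoid X receptors by Rxra, Rxrb and Rxrg. These 6 genes, of 16509 named on the arrays, are read by 9 of the 37600 tested probe sets, chosen as every probe set whose platform annotation gives one of the 6 symbols. Rara, Rarb, Rxrb and Rxrg have 1 probe set each, Rarg has 2 and Rxra has 3. The cells were F9, a mouse teratocarcinoma line that resembles early embryonic cells, profiled on 12 Affymetrix arrays of total RNA. The 4 groups of 3 arrays were F9 cells labelled RARaKO given all-trans retinoic acid (atRA) at 1 µM, F9 cells labelled RARaKO given the ethanol vehicle (EtOH) at 0.1%, WT F9 cells given atRA at 1 µM and WT F9 cells given EtOH at 0.1%. RARaKO is read here as a knockout of Rara. The labels say neither how it was made nor whether the line is 1 clone. Every group, EtOH included, was in cycloheximide, a blocker of protein synthesis, at 1 µg/ml: it was added 30 min ahead of the 7.5 h with atRA or EtOH, so cells spent 8 h in it. Arrays of a group are numbered only as sets 2, 3 and 4, so the spread behind every p-value is that between these arrays and may be technical, and 3 arrays a group limit the precision of every value.

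Retinoic acid receptors bind DNA as heterodimers with a retinoid X receptor, mostly at direct repeats of a hexamer related to AGGTCA. Without ligand the pair holds corepressors, and all-trans retinoic acid, the ligand of the retinoic acid receptors, exchanges them for coactivators. Retinoid X receptors also pair with other nuclear receptors, such as those of thyroid hormone, vitamin D and fatty acids. F9 cells are a classical model of this pathway because retinoic acid makes them differentiate, and Rarb is a classical target whose promoter carries the response element known as the betaRARE. In cycloheximide a transcript that changes needs no newly made protein to do so, as far as the block is complete.

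Promoter windows of 300 bases, from 250 before to 50 after a transcript start, were taken from RefSeq on build GRCm38.p6, and 13 of them belong to the 6 receptor genes. Both strands were searched for 4 hexamers, which are the consensus AGGTCA, the pair in the betaRARE with GGTTCA before AGTTCA, and the related GGGTCA, and for direct repeats of any of them spaced by 5, 2 or 1 bases, the spacings known to bind these heterodimers. Each window below is written 5′ to 3′ on the strand of its gene, with the hexamers, or their reverse complements, in capitals. Rarb has a single window, chr14:16575427-16575726 on the minus strand. It is shown because it was the receptor window with a repeat spaced by 5 and because Rarb was the receptor with the largest response.
Rarb: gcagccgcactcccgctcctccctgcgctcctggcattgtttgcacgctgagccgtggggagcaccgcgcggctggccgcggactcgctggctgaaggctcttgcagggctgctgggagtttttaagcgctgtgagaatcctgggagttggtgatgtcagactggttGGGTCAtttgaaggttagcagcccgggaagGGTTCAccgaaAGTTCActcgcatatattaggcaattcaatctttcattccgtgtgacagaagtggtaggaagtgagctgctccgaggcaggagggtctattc
Its repeat, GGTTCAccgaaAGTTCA, fills bases 198 to 214 of the window, with 36 bases between its end and the start. A repeat spaced by 5 was present in 32 of all 32851 RefSeq promoter windows (0.0974%), and the order of hexamers seen in Rarb, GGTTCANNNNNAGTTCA, in 2 of them (0.00609%). The hexamers included the pair of the betaRARE, known from Rarb, so a match in Rarb was set in advance. These shares are therefore no test of the Rarb match. None of the other 12 receptor windows held a repeat spaced by 5, and repeats spaced by 2 (0.268% of all windows) or by 1 (0.222%) were in 0 of the 13. Among 15 known receptor target genes, 10 had a window, and Cyp26a1 was the one of these 10 with a repeat spaced by 5. Cyp26a1, whose enzyme breaks down retinoic acid, is shown for that reason, from chr19:37697558-37697857 on the plus strand, with its repeat alone in capitals.
Cyp26a1: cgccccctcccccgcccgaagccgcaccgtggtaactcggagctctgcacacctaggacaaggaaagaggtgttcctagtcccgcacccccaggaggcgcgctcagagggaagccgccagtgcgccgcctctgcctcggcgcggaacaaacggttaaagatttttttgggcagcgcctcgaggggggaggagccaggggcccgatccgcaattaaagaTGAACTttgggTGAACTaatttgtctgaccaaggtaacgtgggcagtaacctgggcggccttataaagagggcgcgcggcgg
On the opposite strand the Cyp26a1 repeat reads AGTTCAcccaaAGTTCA, at bases 219 to 235, 15 bases ahead of the start. Windows of the 2 other receptor genes called in any comparison follow, each the window of its gene with the most hexamers: Rara from chr11:98939461-98939760 (plus strand, 4 hexamers) and Rxrg from chr1:167618015-167618314 (plus strand, 2 hexamers).
Rara: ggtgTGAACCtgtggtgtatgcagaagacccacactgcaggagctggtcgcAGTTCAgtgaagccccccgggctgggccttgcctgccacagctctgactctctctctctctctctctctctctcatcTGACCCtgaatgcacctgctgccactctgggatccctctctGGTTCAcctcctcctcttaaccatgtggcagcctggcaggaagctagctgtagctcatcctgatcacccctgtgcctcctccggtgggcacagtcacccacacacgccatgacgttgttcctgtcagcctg
Rxrg: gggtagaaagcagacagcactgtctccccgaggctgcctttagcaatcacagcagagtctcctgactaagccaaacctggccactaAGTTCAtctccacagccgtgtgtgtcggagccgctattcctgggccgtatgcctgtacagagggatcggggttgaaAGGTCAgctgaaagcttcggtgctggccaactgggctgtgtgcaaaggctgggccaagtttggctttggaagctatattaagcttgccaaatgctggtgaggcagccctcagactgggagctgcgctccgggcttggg
Hexamers by themselves are common: 43.7% of all windows held at least 1, whether in a repeat or not. A match is a description of letters, and an absent match says only that these letters are not in the window. Of 31 genes with a repeat spaced by 5 in a window, 10 were measured, by 12 probe sets. Rarb and Cyp26a1 were the 2 called with atRA, both upward, in WT cells and in the arrays labelled RARaKO. Called higher were 0.484% of all probe sets in WT cells and 0.215% in the arrays labelled RARaKO. The match of Rarb was set in advance, as said above. Cyp26a1 is a known target from a list chosen with earlier results of these data known. Its repeat is made of AGTTCA, a hexamer of the betaRARE. The 2 of 10 is therefore a description and no test of such repeats.

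The deposited values are taken as log2 and were found to be centred, probe set by probe set, on the median of the 12 arrays. A value is thus a level relative to that median, and levels of different genes cannot be compared. Fewer cells with a transcript and less of it per cell cannot be told apart in such bulk RNA. The numeric spacing of the values still gave a coarse class: Rxrb and Rarg 1419415_a_at lay at 8 or above on the uncentred scale on all 12 arrays, and the other 7 receptor probe sets had at least 1 array between 4 and 8. Only 33.6% of all probe sets were in that upper class. The SD over probe sets was 0.201 in RARaKO atRA set 2 and 0.128 to 0.162 in the other 11 arrays, so results that rest on that array are followed by the values or calls without it. Of the markers of the labelled cell type, embryonal carcinoma, all 8 (Pou5f1 and Sox2 among them) were in the upper class, as were 8 of 10 extraembryonic endoderm, 2 of 5 neural and 0 of 6 fibroblast markers. Where a marker had several probe sets, one of its highest class stood for it. These counts therefore cannot be set against the 33.6% of all probe sets, which were not picked.

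The targeted gene, Rara, encodes the receptor alpha. Its probe set, 1450180_a_at, read 0.26, 0.05 and 0.29 in RARaKO atRA (sets 2, 3 and 4) and 0.29, 0.32 and 0.30 in RARaKO EtOH. In WT cells it read -0.26, -0.05 and -0.17 in atRA and -0.55, -0.50 and -0.76 in EtOH. All 6 arrays labelled RARaKO were thus above all 6 WT arrays, the opposite of what a loss of the transcript would give. Which part of Rara the probe set reads was not analysed here, and it may lie outside the altered part, so the measurement neither backs nor settles the label. The arrays are called by their label throughout, and each direction between genotypes rests on it. From high to low the group means were 0.30 ± 0.02 in RARaKO EtOH, 0.20 ± 0.13 in RARaKO atRA, -0.16 ± 0.11 in WT atRA and -0.60 ± 0.14 in WT EtOH (SD, n = 3 each). RARaKO EtOH and RARaKO atRA overlapped, and the other neighbours in this order did not. The SD of Rara over the 12 arrays was larger than that of 98.5% of probe sets.

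Rarb encodes the receptor beta. Probe set 1454906_at read 0.51, 0.34 and 0.63 in RARaKO atRA and -0.56, -0.50 and -0.31 in RARaKO EtOH. It read 0.33, 0.31 and 0.41 in WT atRA and -1.05, -1.01 and -0.94 in WT EtOH. Every atRA array lay above every EtOH array, and the 3 WT EtOH arrays were the lowest of all. The group means were 0.49 ± 0.15 in RARaKO atRA, 0.35 ± 0.05 in WT atRA, -0.46 ± 0.13 in RARaKO EtOH and -1.00 ± 0.06 in WT EtOH (SD, n = 3 each). Only RARaKO atRA and WT atRA, the upper neighbours in this order, overlapped. The SD of Rarb over the 12 arrays exceeded that of 99.8% of probe sets, the highest place among the 9.

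Rarg encodes the receptor gamma, and its probe sets moved little. Probe set 1419415_a_at ranged from -0.01 to 0.07 in RARaKO atRA, -0.15 to 0.03 in RARaKO EtOH, 0.12 to 0.26 in WT atRA and -0.10 to 0.00 in WT EtOH. Probe set 1419416_a_at ranged from -0.17 to 0.08 in RARaKO atRA, -0.10 to 0.01 in RARaKO EtOH, 0.14 to 0.32 in WT atRA and -0.08 to 0.09 in WT EtOH. In both, the 3 WT atRA arrays were the highest of the 12, and the other 3 groups overlapped. Their SDs over the 12 arrays lay above 50.04% and 67.4% of probe sets.

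Of the retinoid X receptors, the common partners in the heterodimer, Rxra and Rxrb were nearly level. Over the 12 arrays the 3 Rxra probe sets ranged from -0.13 to 0.12 (1425762_a_at), -0.23 to 0.25 (1430497_at) and -0.09 to 0.31 (1454773_at), and no group of any of them stood apart from the rest. Rxrb 1416990_at ranged from -0.14 to -0.04 in RARaKO atRA, -0.16 to -0.02 in RARaKO EtOH, 0.02 to 0.18 in WT atRA and 0.03 to 0.08 in WT EtOH. Its 6 arrays labelled RARaKO therefore all lay below its 6 WT arrays, by small distances. The SDs of the Rxra probe sets lay above 10.1%, 47.6% and 47.1% of probe sets and that of Rxrb above 33.7%.

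Rxrg encodes the receptor known mainly from muscle and brain. Probe set 1418782_at read -0.29, -0.18 and 0.17 in RARaKO atRA and -0.63, -0.45 and -0.23 in RARaKO EtOH. It read 0.56, 0.56 and 0.41 in WT atRA and 0.04, 0.05 and -0.04 in WT EtOH. WT atRA was the highest group, with no overlap with any other. The means were 0.51 ± 0.09 in WT atRA, 0.02 ± 0.04 in WT EtOH, -0.10 ± 0.24 in RARaKO atRA and -0.43 ± 0.20 in RARaKO EtOH (SD, n = 3 each). WT EtOH overlapped with RARaKO atRA, its neighbour in this order, and RARaKO atRA with RARaKO EtOH. Its SD over the arrays exceeded that of 98.5% of probe sets, the same share as for Rara.

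**Figure D1:**
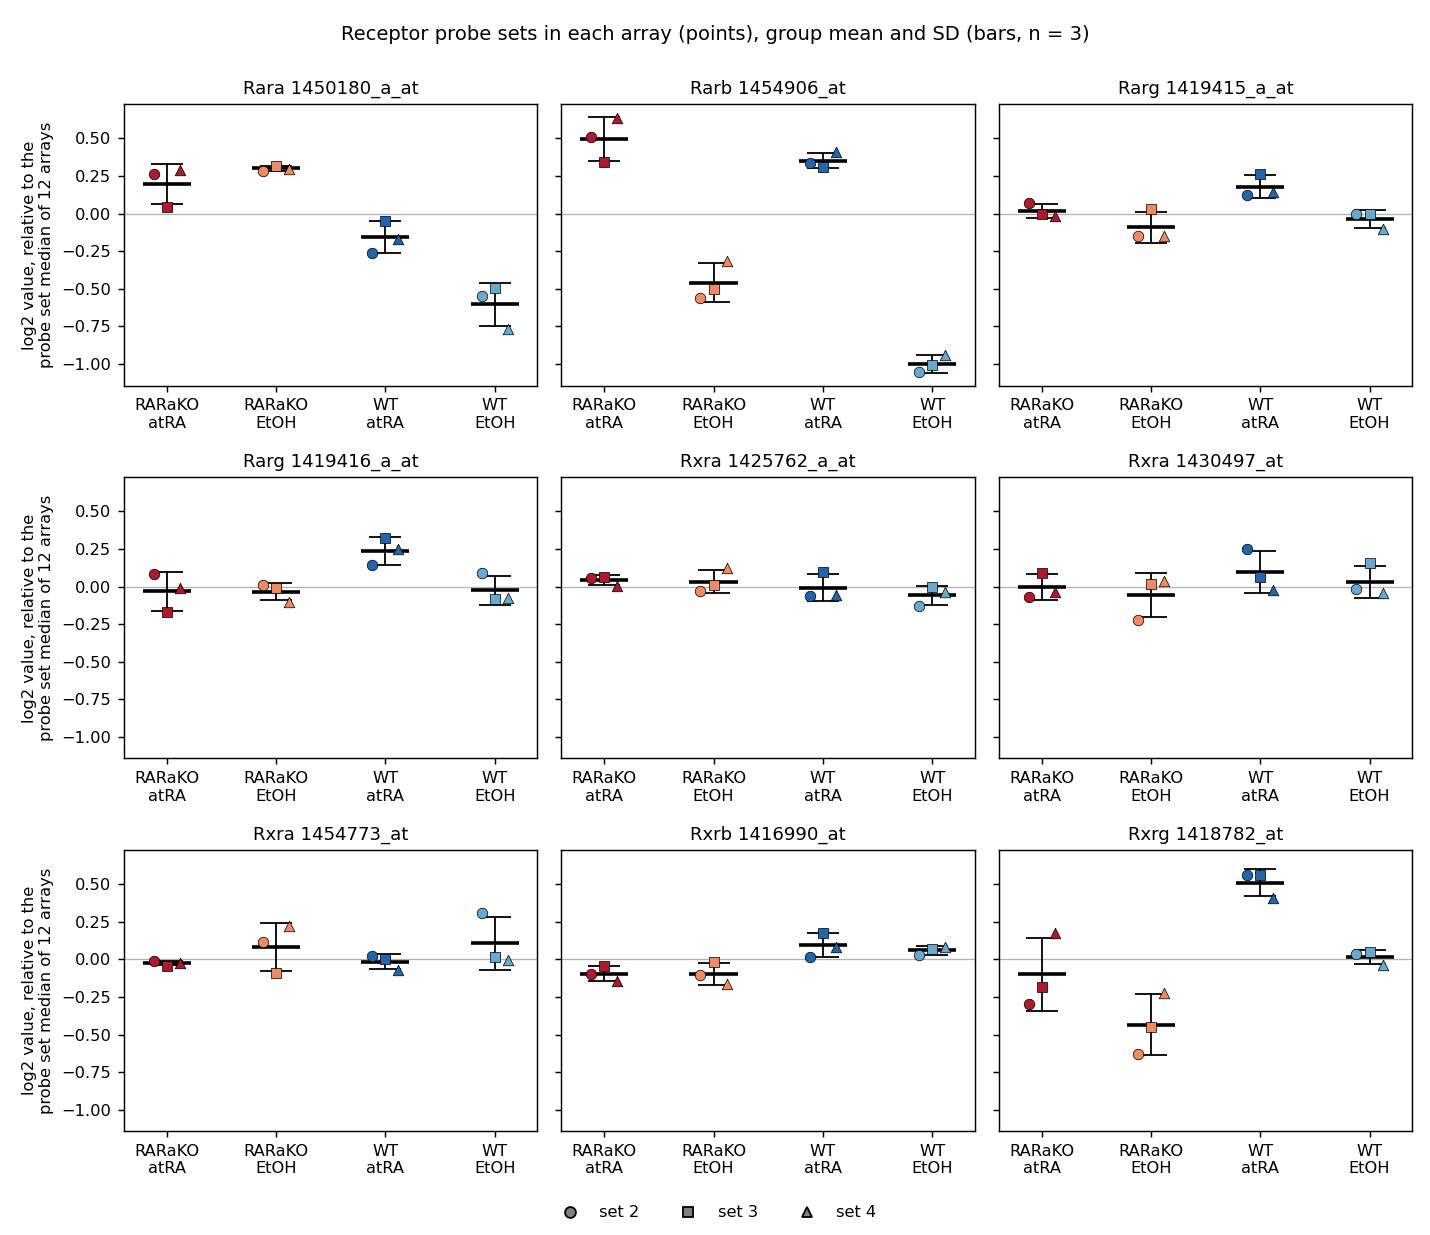
Relative log2 value (vertical axis, 0 is the median of that probe set's 12 arrays) of the 9 receptor probe sets, a panel each, in RARaKO atRA, RARaKO EtOH, WT atRA and WT EtOH. Points are arrays, shaped by set, and bars are the group mean and SD of 3 arrays. Rarb runs from 0.63 down to -1.05, Rara is low in WT EtOH (-0.76 to -0.50), Rxrg is high in WT atRA (0.41 to 0.56), and the other 6 panels stay close to 0.

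In WT cells the response to atRA asks which receptor transcripts changed while the cells were in cycloheximide. Rarb rose 2.55-fold (log2 difference 1.35 ± 0.09, SE, limma adjusted p = 1.33e-05), and only 5 of the 37600 probe sets had a larger increase. Rara rose 1.36-fold (0.45 ± 0.09, adjusted p = 0.0460). Rxrg, at 0.50 ± 0.12, did not pass (adjusted p = 0.129). An adjusted p under 0.05, by Benjamini-Hochberg over all 37600 probe sets, is the threshold in all 5 comparisons.

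Thus 2 of the 9 receptor probe sets were called in WT cells, both higher, while 0.569% of all probe sets were called (214, and 0.484% for those called higher), and 339 with the set as a block. Without overlap between WT atRA and WT EtOH were 5 of the 9 (Rara, Rarb, both of Rarg and Rxrg, all with atRA above), while 13.6% of all probe sets had no overlap, 6.22% with atRA above. The median over the 9 was 0.21, and over all probe sets -0.01. Rarg differed by 0.21 (95% interval 0.06 to 0.36, adjusted p = 0.385) and 0.26 (0.09 to 0.44, adjusted p = 0.324). Rxra differed by 0.05 (-0.10 to 0.20), 0.07 (-0.14 to 0.27) and -0.12 (-0.32 to 0.08), and Rxrb by 0.03 (-0.11 to 0.17). None of these 6 was called, and their intervals leave out a change the size of that of Rarb.

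Within sets 2, 3 and 4 the WT difference of Rarb was 1.39, 1.32 and 1.35. That of Rara was 0.29, 0.45 and 0.60, and that of Rxrg 0.53, 0.52 and 0.44, so all 3 were upward in every set. Rarb was called under all 21 alternatives. Rara was called under 4 of the 21. The call was lost with the set as a block (limma adjusted p = 0.0543), after quantile normalization (0.0918) and in the 6 WT arrays fitted alone (0.119). It was lost without the whole of set 2 (0.289), set 3 (0.265) or set 4 (0.560). It was also lost without any single array other than RARaKO atRA set 3, at adjusted p from 0.0506 (RARaKO atRA set 4) to 0.197 (WT atRA set 3). Rxrg was called in the 6 WT arrays fitted alone (adjusted p = 0.0273) and without RARaKO atRA set 4 (0.0428). The mean 5′ minus 3′ difference of 4 control genes, a measure of RNA integrity, also parted these groups, at 0.02, -0.02 and -0.01 in WT atRA and -0.09, -0.12 and -0.08 in WT EtOH, and its part in these results was not tested.

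In the arrays labelled RARaKO the response asks whether the receptor transcripts still changed with atRA. Rarb rose 1.94-fold (0.95 ± 0.09, adjusted p = 4.05e-04) and ranked 18 from the largest increase. It was the 1 receptor probe set called, while 0.263% of all probe sets were called (99, and 167 with the set as a block), and 0.215% called higher. It was also the 1 of 9 whose RARaKO atRA and RARaKO EtOH arrays did not overlap, while 12.7% of all probe sets had no overlap, 7.31% with atRA above. Rxrg differed by 0.33 (95% interval 0.07 to 0.59, adjusted p = 0.459) and Rara by -0.10 (-0.29 to 0.09, adjusted p = 0.839).

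Within sets 2, 3 and 4 of the arrays labelled RARaKO the difference of Rarb was 1.07, 0.84 and 0.95. That of Rara was -0.02, -0.27 and -0.01, so its mean was mostly set 3, and without RARaKO atRA set 3 it was -0.02. Rxrg had 0.33, 0.26 and 0.40, and 0.20 without RARaKO atRA set 4. The 6 probe sets of Rarg, Rxra and Rxrb lay between -0.11 and 0.11, and the median over the 9 was 0.01, against 0.00 over all probe sets. Without RARaKO atRA set 2, the array of widest spread, Rarb rose by 0.95 ± 0.10 (adjusted p = 0.00360) and was the 1 receptor among 69 probe sets called. Rxrg then had 0.43 ± 0.12 (adjusted p = 0.295), Rara -0.13, and the 6 others -0.11 to 0.08. The call of Rarb was lost without the whole of set 2 (0.0696) or set 3 (0.106). The 5′ minus 3′ mean overlapped here, at 0.06, 0.00 and 0.09 in RARaKO atRA and 0.07, -0.02 and 0.13 in RARaKO EtOH.

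Whether the genotype label altered the response was tested as the RARaKO difference minus the WT difference. Rara differed by -0.55 (95% interval -0.82 to -0.28), Rarb by -0.40 (-0.66 to -0.14) and Rarg 1419416_a_at by -0.26 (-0.51 to -0.01). All 3 differences leave out 0 before correction for the number of probe sets, and none of the 9 receptor probe sets was called (limma adjusted p = 1.00 for each, 0.0% of all probe sets called). At an unadjusted p under 0.05 stood 3 of the 9 and 1168 of all 37600. Rxrg differed by -0.16 (-0.53 to 0.20), and the 5 others by -0.10 to 0.01. The difference of Rarb was -0.26 after quantile normalization, and that of Rxrg ranged from -0.30 without RARaKO atRA set 4 to -0.06 without RARaKO EtOH set 4 and -0.04 with array weights. Without RARaKO atRA set 2 it was -0.58 for Rara, -0.41 for Rarb and -0.07 for Rxrg, with none called.

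In EtOH the comparison of genotypes asks which receptor transcripts differed without added ligand. Rara was higher by 1.87-fold in the arrays labelled RARaKO than in WT (0.90 ± 0.09, adjusted p = 1.50e-04), and Rarb by 1.45-fold (0.54 ± 0.09, adjusted p = 0.00394). Rxrg differed by -0.45 ± 0.12 (adjusted p = 0.0677), and passed with the set as a block (adjusted p = 0.0451). Thus 2 of 9 were called, both higher, while 3.01% of all probe sets were called (1131, and 1972 with the block) and 1.84% were called higher. Without overlap between RARaKO EtOH and WT EtOH were 4 of the 9, Rara and Rarb above and Rxrb and Rxrg below, while 22.4% of all probe sets had no overlap, 9.69% above and 12.7% below.

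Within sets 2, 3 and 4 the EtOH difference between genotypes was 0.83, 0.82 and 1.06 for Rara, and this call held under all 21 alternatives. For Rarb it was 0.49, 0.50 and 0.63, and the call was lost after quantile normalization (0.30, adjusted p = 0.128) and without set 2 (0.0512) or set 3 (0.0771). For Rxrg it was -0.66, -0.49 and -0.19, and it passed without RARaKO EtOH set 4 (-0.55, adjusted p = 0.0381), RARaKO atRA set 2 (0.0444) or RARaKO atRA set 4 (0.0269). Rxrb, at -0.16 (95% interval -0.29 to -0.02, adjusted p = 0.265), was not called, and the 5 probe sets of Rarg and Rxra lay between -0.09 and 0.09. The median of the 9 was -0.02 and that of all probe sets -0.01. The 5′ minus 3′ mean parted these groups as well (0.07, -0.02 and 0.13 in RARaKO EtOH against -0.09, -0.12 and -0.08 in WT EtOH), and its part was not tested.

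In atRA the same comparison asks what differed with ligand present. Rxrg was 1.53-fold lower in the arrays labelled RARaKO than in WT (-0.61 ± 0.12, adjusted p = 0.0145), and Rara was 1.28-fold higher (0.36 ± 0.09, adjusted p = 0.0488). Rarb, at 0.14 (95% interval -0.04 to 0.33), was not called (adjusted p = 0.424). Called were 2 of the 9, 1 higher and 1 lower, while the shares over all probe sets were 3.12% in all, 1.61% for higher and 1.51% for lower. Without overlap between RARaKO atRA and WT atRA were 5 of the 9, Rara above and both of Rarg, Rxrb and Rxrg below, while 20.4% of all probe sets had no overlap, 9.9% above and 10.5% below.

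Of the receptors not called in atRA, Rarg had -0.16 (-0.31 to -0.01, adjusted p = 0.256) and -0.27 (-0.44 to -0.09, adjusted p = 0.0960), Rxrb -0.19 (-0.33 to -0.05, adjusted p = 0.142), and Rxra -0.10 to 0.05. The median of the 9 was -0.10 and that of all probe sets 0.00. Within sets 2, 3 and 4 Rxrg differed by -0.86, -0.75 and -0.23. Its call was lost without RARaKO atRA set 2 (-0.51, adjusted p = 0.0566), WT atRA set 2 (0.0560) or WT atRA set 3 (0.0528), and without the whole of set 2 (0.146) or set 3 (0.215). Rara differed by 0.52, 0.09 and 0.46 within sets, and was called under 7 of 21 alternatives. It was not called with robust eBayes (limma adjusted p = 0.0505) or in the arrays of this comparison fitted alone (0.120). Nor was it called without the whole of set 2 (0.337), set 3 (0.0617) or set 4 (0.281). Its call was lost without any single array other than RARaKO atRA set 3, WT atRA set 3 and WT EtOH set 4, at adjusted p from 0.0536 (WT EtOH set 3) to 0.154 (WT atRA set 4), and 0.131 without RARaKO atRA set 2. Without that array no receptor probe set was called in atRA, of 776 called in all, and Rara had 0.33, Rarb 0.14, Rarg -0.19 and -0.33, Rxrb -0.19 and Rxra -0.07 to 0.04. The value of Rarb was 0.07 without RARaKO atRA set 4 and 0.22 without RARaKO atRA set 3.

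**Figure D2:**
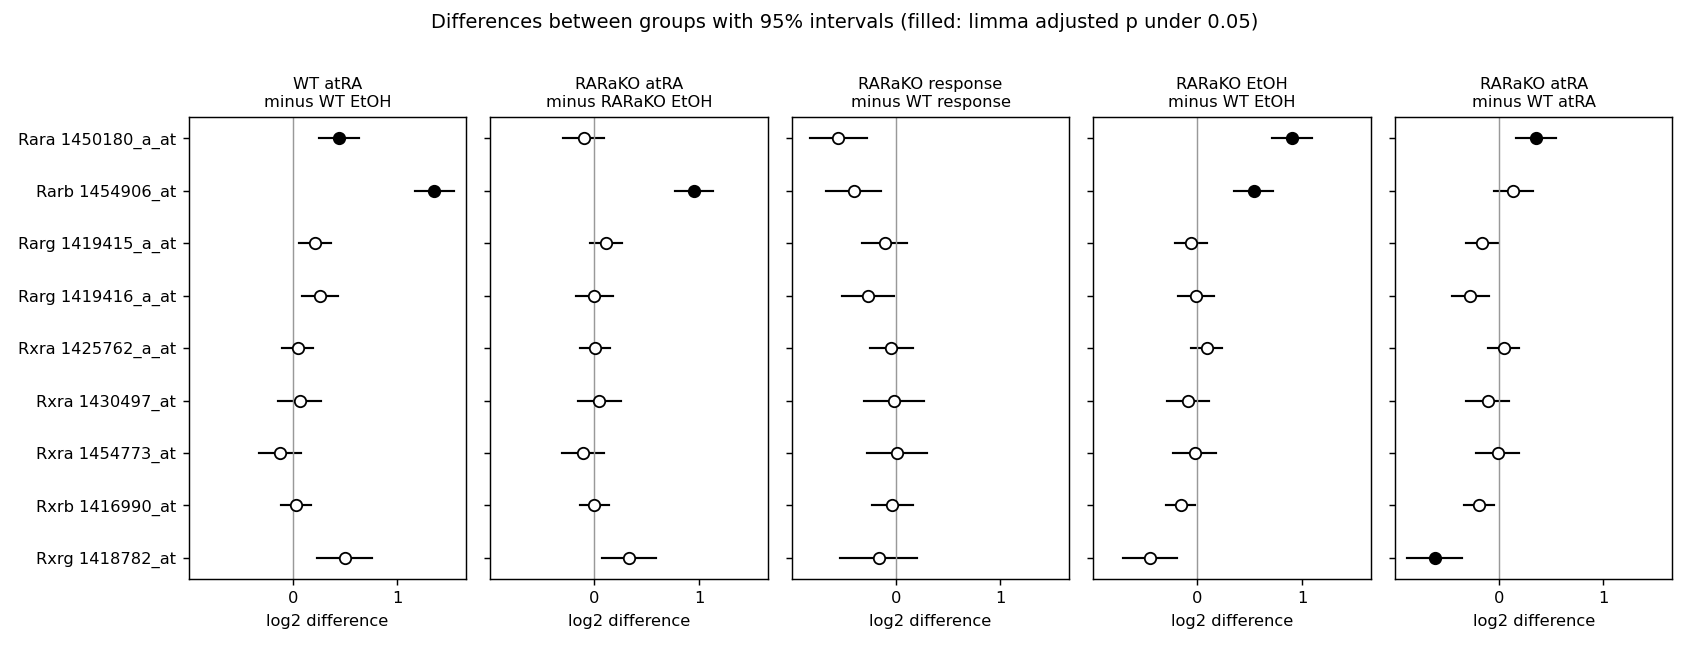
Log2 difference (horizontal axis) of the 9 receptor probe sets with 95% intervals of the limma fit, for the 5 comparisons from left to right: WT response, RARaKO response, RARaKO response minus WT response, RARaKO minus WT in EtOH and RARaKO minus WT in atRA. Filled points have an adjusted p under 0.05: Rarb (1.35) and Rara (0.45) in the first panel, Rarb (0.95) in the next, none in the middle, Rara (0.90) and Rarb (0.54) in the fourth, and Rara (0.36) and Rxrg (-0.61) in the last.

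The comparisons share arrays: the WT EtOH arrays enter both the WT response and the EtOH comparison, and the WT atRA arrays both the WT response and the atRA comparison. Values of the receptors in different comparisons are therefore set side by side here, and their likeness is not read as a result. For Rara, whose lowest group was WT EtOH, the genotype difference was 0.90 in EtOH and 0.36 in atRA. For Rxrg, whose highest group was WT atRA, it was -0.45 in EtOH and -0.61 in atRA.

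Among genes that supply or remove the ligand, 3 of 11 measured rose in WT cells, where 0.484% of all probe sets rose, and none fell. Cyp26a1 rose by 1.35 ± 0.08 (adjusted p = 1.33e-05), Dhrs3, a retinaldehyde reductase, by 1.06 ± 0.09 and Stra6, the retinol uptake receptor, by 0.83 ± 0.11. The same 3 rose in the arrays labelled RARaKO, by 1.38 ± 0.08, 0.71 ± 0.09 and 0.81 ± 0.11, where 0.215% of all probe sets rose. Between genotypes 0 of 11 were called in EtOH, where 3.01% of all probe sets were, and 0 of 11 in atRA, where 3.12% were. With shares this low, 0 of 11 is not read as a result about these genes. Aldh1a2, an enzyme that makes retinoic acid, had -0.43 ± 0.09 in WT (adjusted p = 0.0757) and -0.37 ± 0.09 in the arrays labelled RARaKO (adjusted p = 0.207), and passed in neither. The medians of the list were 0.04 and 0.01, near those of all probe sets. The same 3 genes were called in both responses without RARaKO atRA set 2.

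Of 13 measured known targets of these receptors, 8 rose in WT cells (0.484% of all probe sets) and 7 in the arrays labelled RARaKO (0.215%), with no decrease called in either. This list, like the others here, was chosen with earlier results of these data known. It also shares Cyp26a1, Dhrs3 and Stra6 with the ligand list and Nrip1 with the corepressors. Cdx1, a posterior homeobox gene, rose by 1.74 ± 0.13 in WT and 1.45 ± 0.13 in the arrays labelled RARaKO. Hoxb1, a hindbrain homeobox gene, rose by 1.11 ± 0.11 and 0.74 ± 0.11, and Stra8, which acts when germ cells enter meiosis, by 0.94 ± 0.09 and 0.75 ± 0.09. Nrip1, Cyp26a1, Dhrs3 and Stra6 made up the 7 shared, and Foxa1, an endoderm factor, rose in WT (0.66 ± 0.09) and had 0.48 ± 0.09 in the arrays labelled RARaKO (adjusted p = 0.0676). Medians of the 13 were 0.83 in WT and 0.71 in the arrays labelled RARaKO, against -0.01 and 0.00 over all probe sets. Without RARaKO atRA set 2, Hoxb1 lost its call in the arrays labelled RARaKO (0.69, adjusted p = 0.0716), and the other 6 of the 7 kept theirs.

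Between genotypes the targets went both ways. In EtOH Foxa1 (0.48 ± 0.09) and Stra8 (0.61 ± 0.09) were the 2 of 13 higher in the arrays labelled RARaKO (1.84% of all probe sets). Lower were 3 of 13, where 1.16% of all probe sets were called lower. They were Hoxb1 (-0.65 ± 0.11) and the genes of the Hox cofactors Meis2 (-0.73 ± 0.16, 2 of its 4 probe sets called) and Meis1 (-0.48 ± 0.11, 2 of 3). In atRA 1 of 13, Stra8 (0.42 ± 0.09), was higher, where 1.61% of all probe sets were. There 2 of 13, Hoxb1 (-1.02 ± 0.11) and Meis2 (-0.69 ± 0.16, 3 of its 4 probe sets called), were lower, where 1.51% were. Meis1 had -0.18 ± 0.11 in atRA (limma adjusted p = 0.450), with 1 of its 3 probe sets called. Stra8 lost its call in atRA without RARaKO atRA set 2 (0.33, adjusted p = 0.0936), and Hoxb1 (-1.07) and Meis2 (-0.86) kept theirs. None of the 13 was called in the difference between the responses.

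Among 9 measured corepressor genes Nrip1, which binds receptors that hold ligand, was the 1 called: it rose by 1.09 ± 0.12 in WT (adjusted p = 6.11e-04) and by 1.17 ± 0.12 in the arrays labelled RARaKO (adjusted p = 9.51e-04), on 3 of its 6 probe sets. Called higher were 0.484% of all probe sets in WT and 0.215% in the arrays labelled RARaKO. The rise of Nrip1 in the arrays labelled RARaKO was 1.11 without RARaKO atRA set 2, and still called. Coactivators (10 measured, 10 in the upper class by the probe set picked for its class) had 0 called in any of the 5 comparisons, where 0.0% to 3.12% of all probe sets were. Heterodimer partners of the retinoid X receptors (11 measured of 13 listed, such as Thra, Vdr and Ppara) had 0 called as well. Only 1 of these 11 was in the upper class. Of 6 measured receptors that bind similar direct repeats, Nr6a1, a repressor of germ cell and pluripotency genes, was lower in the arrays labelled RARaKO in atRA (-0.41 ± 0.10, adjusted p = 0.0460), on 2 of its 4 probe sets. Called lower in atRA were 1.51% of all probe sets. In EtOH Nr6a1 had -0.36 ± 0.10 (adjusted p = 0.0798), with 1 of its 4 probe sets called. It was called in both without RARaKO atRA set 2, at -0.50 in atRA (adjusted p = 0.0208) and -0.36 in EtOH (0.0412). In the WT response 1 of its 4 probe sets was called, but not the one that stands for the gene (0.36 ± 0.10, adjusted p = 0.230).

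**Figure D3:**
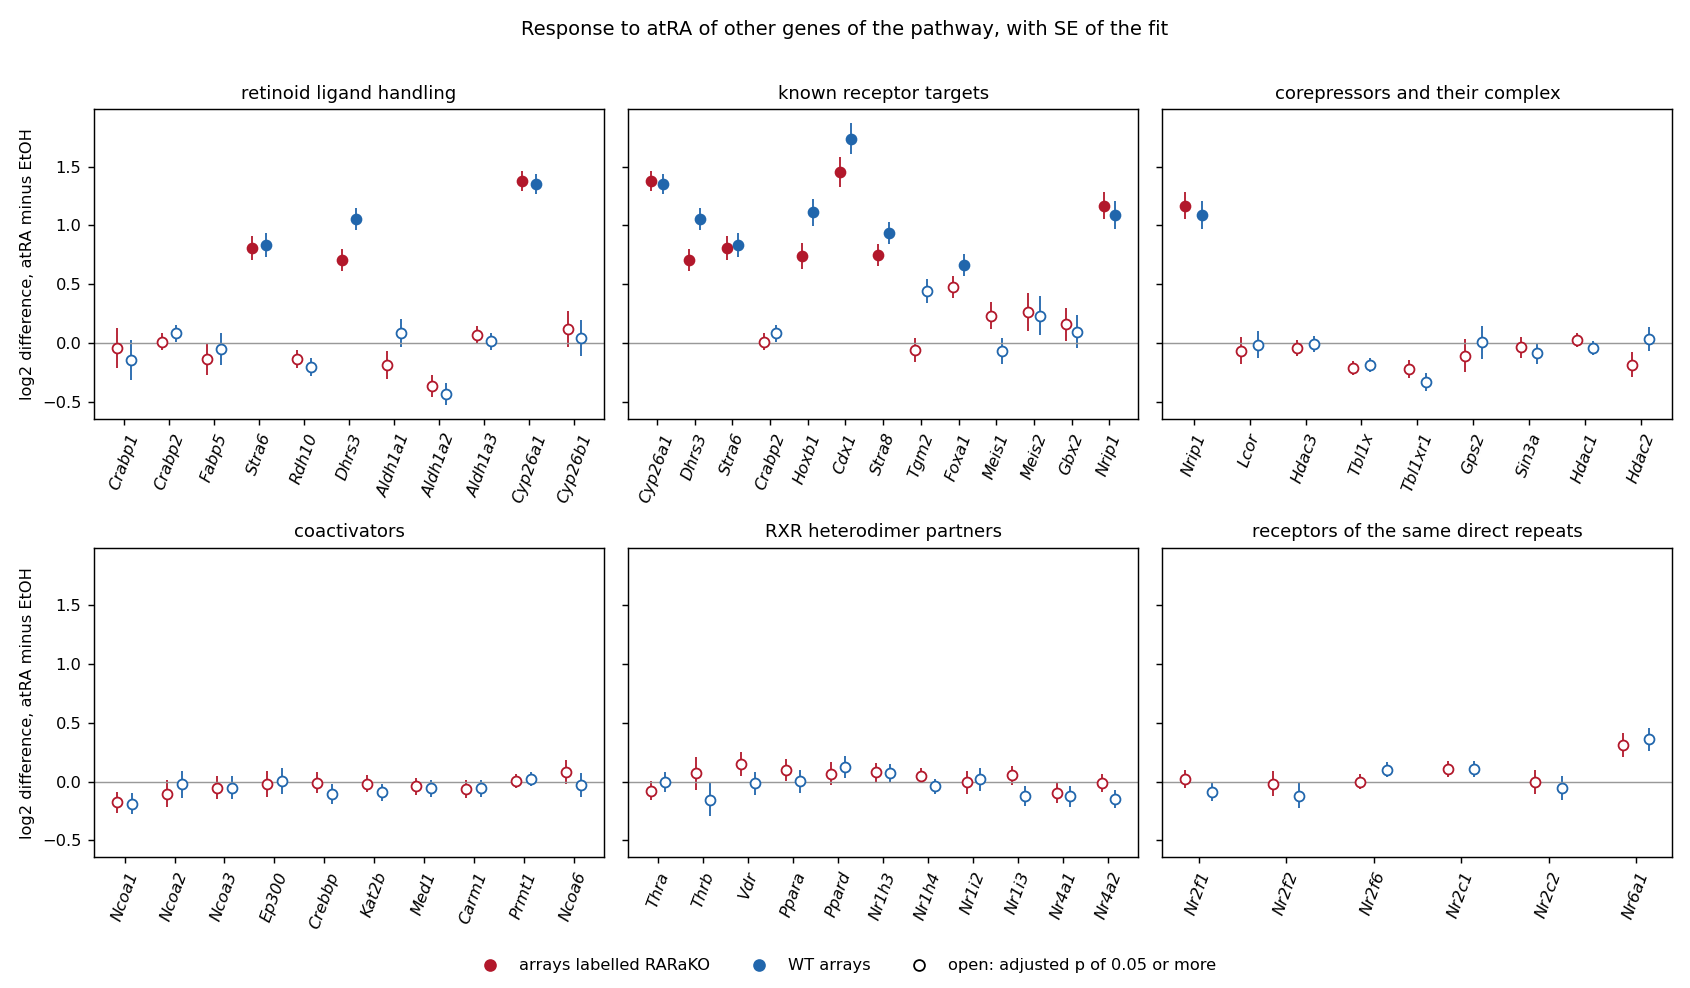
Log2 difference between atRA and EtOH (vertical axis) with the SE of the fit for genes of 6 lists around the receptors, in the arrays labelled RARaKO (red) and in WT arrays (blue). Filled points have an adjusted p under 0.05, which marks Cyp26a1, Dhrs3 and Stra6 in ligand handling, Cdx1 (1.74 in WT) at the top of the targets, and Nrip1 (1.17 and 1.09) among corepressors. No point is filled among coactivators, partners and the receptors of the same repeats, where Nr6a1 is the highest (0.31 in the arrays labelled RARaKO and 0.36 in WT).

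Markers of other cell types moved in part with these results, and their part was not tested. Pdgfrb, of the fibroblast list, rose by 0.50 ± 0.08 in WT cells and by 0.52 ± 0.08 in the arrays labelled RARaKO, and the other 5 of 6 measured fibroblast markers were not called. Called higher were 0.484% of all probe sets in WT cells and 0.215% in the arrays labelled RARaKO. The mean of the fibroblast list ran from 0.00 to 0.09 over the RARaKO atRA arrays, -0.07 to 0.01 in RARaKO EtOH, -0.02 to 0.02 in WT atRA and -0.16 to 0.00 in WT EtOH. Of 5 measured neural markers, Tubb3, a neuronal tubulin, was higher in the arrays labelled RARaKO than in WT. Its difference was 0.65 ± 0.14 in EtOH and 0.70 ± 0.14 in atRA (adjusted p = 0.0537 there without RARaKO atRA set 2). Dcx, a protein of young neurons, was lower in EtOH by -0.41 ± 0.10, on 1 of its 4 probe sets. In atRA Dcx was not called (-0.35 ± 0.10, limma adjusted p = 0.0766). Map2, Nes and Pax6, which complete the list, were not called in any of the 5 comparisons. As a background between genotypes, 1.84% of probe sets passed upward and 1.16% downward in EtOH, with 1.61% and 1.51% in atRA. The neural list's mean ran from -0.08 to 0.06 in RARaKO atRA, 0.05 to 0.15 in RARaKO EtOH, -0.14 to -0.03 in WT atRA and 0.01 to 0.03 in WT EtOH. Whether a marker is at 0 cannot be read from centred values.

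The genes whose 12 values ran closest to each called receptor were found by the root mean square difference over the 12 arrays, with each probe set centred on its mean. Such closeness is a description over arrays that all these genes share. The genes were picked by these same values, so group differences like those of the receptor follow largely from that choice. Their calls are given as description and are no separate result. For Rara, whose own root mean square is 0.365, they were Dmrtb1 (0.139), Slc2a1 (0.143), Cap1 (0.155), Atp6v0b (0.166) and Smap2 (0.168). All 5 lie on chromosome 4, which holds 6.17% of the 16382 named genes with a known chromosome, while Rara lies on chromosome 11. In the arrays labelled RARaKO all 5 were higher in EtOH, by 0.55 (Smap2) to 0.82 (Slc2a1), and in atRA, by 0.41 (Dmrtb1) to 0.66 (Slc2a1), and none was called in either response to atRA. All 5 stayed called in atRA without RARaKO atRA set 2.

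For Rarb, with 0.615 of its own, the nearest were Ncmap (0.142), Cidea (0.146), Aurkc (0.160), Csn3 (0.167) and Tle6 (0.170). All 5 rose with atRA, by 1.01 (Tle6) to 1.57 (Csn3) in WT cells and by 0.80 (Cidea) to 1.21 (Csn3) in the arrays labelled RARaKO. In EtOH the arrays labelled RARaKO also had 4 of them higher, from 0.38 (Cidea) to 0.66 (Aurkc), and Ncmap had 0.27 (adjusted p = 0.359). For Rxrg, with 0.365, the nearest were Rita1 (0.0873), Hspa12a (0.133), Lin7b (0.134), Btn1a1 (0.138) and Wt1 (0.166), on 5 different chromosomes. All 5 were lower in the arrays labelled RARaKO in atRA, by -0.65 (Lin7b) to -0.53 (Btn1a1), and Btn1a1 was the 1 called in the WT response (0.53, adjusted p = 0.0292). Without RARaKO atRA set 2, Rita1 (adjusted p = 0.124) and Lin7b (0.133) lost their calls in atRA, and the 5 genes near Rarb stayed called in the RARaKO response.

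**Figure D4:**
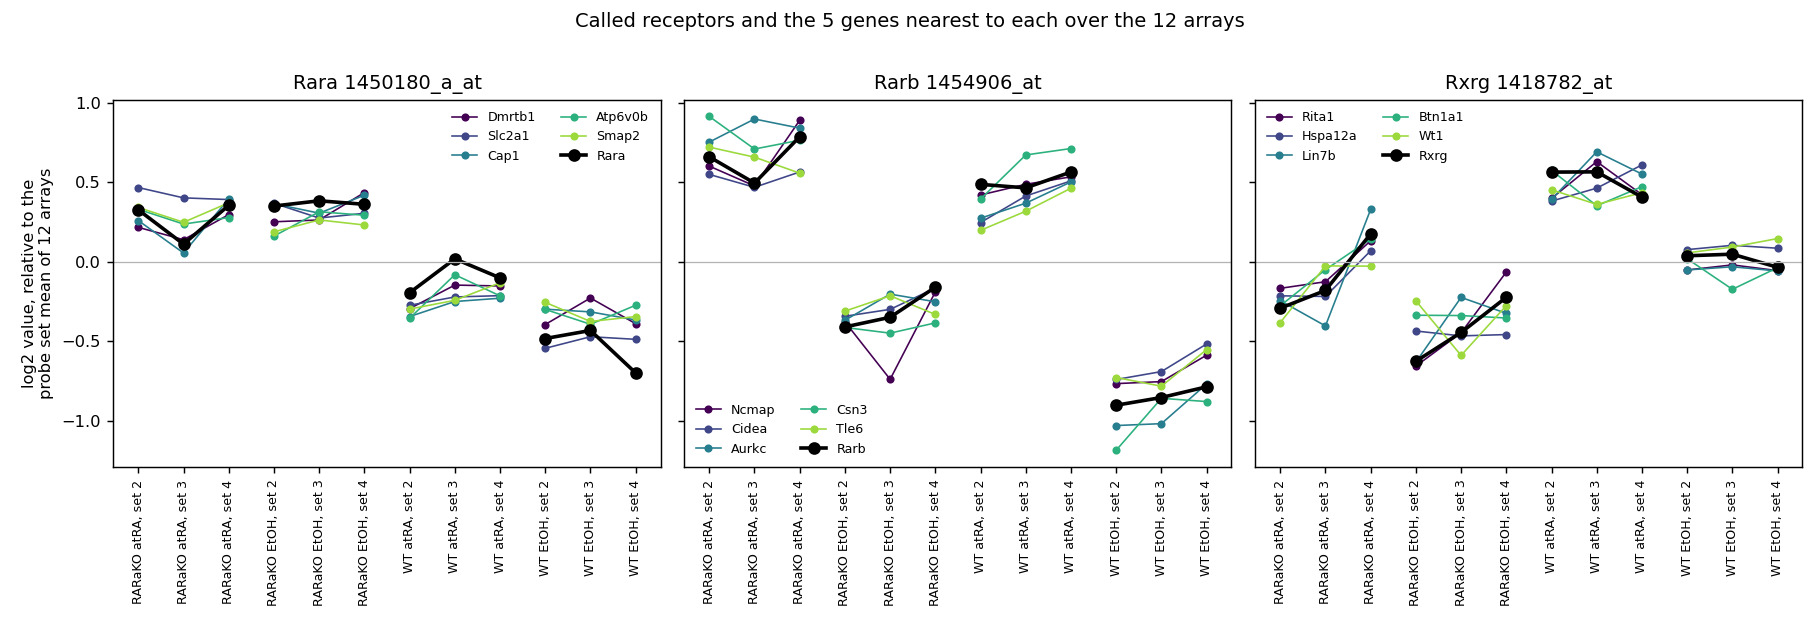
Log2 value relative to the probe set's mean over the 12 arrays (vertical axis) of Rara, Rarb and Rxrg (black) and the 5 genes nearest to each (colours), over the arrays of RARaKO atRA, RARaKO EtOH, WT atRA and WT EtOH (horizontal axis, sets 2, 3 and 4). Lines join arrays of a group. The genes near Rara separate the genotype labels, those near Rarb separate atRA from EtOH, and those near Rxrg peak in WT atRA. They were chosen by these same values, so such likeness follows from the choice.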

How the data were processed

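Expression was measured on 12 Affymetrix arrays, 3 per group. The deposited log2 values were made by the authors with GCRMA, per the submitters' processing notes, which give no version and no log base. Each probe set was found to be centred on its median over the 12 arrays (largest absolute median 7.02e-07), a step no label records, so a filter on levels and an intensity trend could not be applied. In their place a level class was recovered from the numeric spacing of the values (2 to the power -20 for 8 to 16, -21 for 4 to 8, -22 for 2 to 4), and 85 of 99 ribosomal protein probe sets but 0 of 27 olfactory receptor ones fell in the upper class. All 37600 probe sets other than 61 controls were tested. The annotation gives 30488 of them a single symbol, 784 several and 6328 none, and only the first were named. No column was left unused (0), and no arrays were identical.

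Differences were fitted by lmFit and eBayes of limma 3.58.1 under R 4.3.3 (a mean per group, no block, 8 residual and 4.60 prior degrees of freedom), two-sided, with Benjamini-Hochberg adjustment over all probe sets. The fit was tested on simulated data. Where a gene of a list has several probe sets, a single one stands for it, with the number called beside it. That one was picked first by the highest level class, which raises the counts of list genes in the upper class. Same-numbered arrays deviated together, with correlations over 0.1 in every set of the WT response (0.393, 0.267, 0.101), the RARaKO response (0.210, 0.117, 0.497) and the EtOH comparison (0.137, 0.116, 0.238). In atRA (0.287, 0.144, 0.0375) sets 2 and 3 were over 0.1 and set 4 was not. The cut at 0.1 is arbitrary, so whether the sets pair the arrays in atRA is open. The main fit used no block, and the pairing enters only through an alternative. Alternatives were the set as a block, array weights, robust eBayes, array medians subtracted, quantile normalization, the upper class alone, each comparison's own arrays, and leaving out each array or set. Every receptor probe set is named, with the 5 nearest genes of each called receptor and the called members of each list. The members and the lists were chosen with earlier results of these data known. Promoter windows come from RefSeq, build GRCm38.p6.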

Additional observations from a re-analysis of the deposited data

How the results depend on the processing

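Of the 7 receptor results called, 106 of 147 alternatives kept the call and 0 changed sign. Of the 38 not called, 9 of 799 alternatives passed, and 61 changed sign without passing. With the set as a replicate block, which uses the pairing by set, the probe sets called numbered 339 in the WT response (1 receptor probe set), 167 in the RARaKO response, 1972 between genotypes in EtOH and 2344 in atRA, where pairing by set is open. The block changed no receptor call other than Rara in the WT response and Rxrg in EtOH. Array weights gave 382 in the WT response and 2071 in EtOH. Receptor probe sets called numbered 1 with robust eBayes in atRA and 1 after quantile normalization in the WT response. The upper level class alone, which holds only Rarg 1419415_a_at and Rxrb and fewer probe sets in all, gave 63 in the RARaKO response. A comparison's own 6 arrays gave 14 in the RARaKO response and 592 in atRA, with 1 receptor probe set there. With an array or a whole set left out, the counts ran from 40 to 226 in the WT response (receptor probe sets 1 to 2), 2 to 88 in the RARaKO response (0 to 1), 217 to 1426 in EtOH (1 to 3) and 320 to 1124 in atRA (0 to 2); leaving out arrays also leaves fewer residual degrees of freedom. Signal over background was not analysed, since the values are centred.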
